A study of Mus musculus with 23 samples.

Results

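The genes described here encode 8 carriers that bring drugs, bile acids, hormones and nutrients into liver cells: *Slco1a1*, *Slco1a4*, *Slco1b2*, *Slco2a1*, *Slco2b1*, *Slc10a1*, *Slc22a5* and *Slc22a7*. They were taken by gene name, which gave 16 array probes, and 15 of these passed the filter on dim probes. All 8 genes were therefore measured, among 21056 genes tested. Liver RNA came from 23 male C57Bl6/J mice, 1 array per mouse, in 4 groups: WT CONT (n = 6), WT PCN (n = 5), *Pxr*-/- CONT (n = 6) and *Pxr*-/- PCN (n = 6). *Pxr*-/- mice lack the nuclear receptor PXR, encoded by *Nr1i2*. PCN groups were injected intraperitoneally each day for 4 days with the rodent PXR ligand pregnenolone 16α-carbonitrile at 100 mg/kg in corn oil, and CONT groups with the oil alone. Mice were fed freely, and livers were taken at ZT6, which was 6 h after the final dose. WT mice were bought at 6 weeks of age and acclimatised for 2 weeks, whereas *Pxr*-/- mice, backcrossed on the same strain, came from a colony of the facility, and their age was not stated separately. A difference between genotypes can therefore not be told apart from one between colonies.

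Uptake across the sinusoidal membrane, the face of the hepatocyte that is bathed in blood, is the first step of hepatic drug and bile acid clearance. The organic anion transporting polypeptides (the SLCO family) exchange bulky organic anions, bile acids, steroid and thyroid hormone conjugates and many drugs without sodium, and *Slc10a1* encodes NTCP, which takes up conjugated bile acids together with sodium. The SLC22 family holds carriers of organic cations, organic anions and carnitine. PXR is a ligand-activated transcription factor that controls enzymes and carriers of drug clearance, and *Slco1a4* has long been described as a PCN-responsive gene of rodent liver.

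*Slco1b2*, *Slco1a4* and *Slco1a1* lie close together on chromosome 6, with *Gm5724* between the first and the second of them. *Slco1a4* and *Slco1a1* are direct neighbours in the RefSeq annotation of GRCm38.p6. The 250 bases before the RefSeq start of each of these neighbours are shown because their signals moved in opposite directions with PCN. Both are on the minus strand and are written 5′ to 3′, with capitals for AGTTCA or AGGTCA on either strand (TGAACT or TGACCT on the other), the hexamers from which binding sites of PXR and related receptors are built.
*Slco1a4*, chr6:141856221-141856470: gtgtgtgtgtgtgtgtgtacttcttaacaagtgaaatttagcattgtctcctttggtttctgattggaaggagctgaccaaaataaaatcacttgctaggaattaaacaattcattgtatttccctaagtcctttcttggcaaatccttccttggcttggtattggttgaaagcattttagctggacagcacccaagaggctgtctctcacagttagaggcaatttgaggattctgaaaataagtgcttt
*Slco1a1*, chr6:141946963-141947212: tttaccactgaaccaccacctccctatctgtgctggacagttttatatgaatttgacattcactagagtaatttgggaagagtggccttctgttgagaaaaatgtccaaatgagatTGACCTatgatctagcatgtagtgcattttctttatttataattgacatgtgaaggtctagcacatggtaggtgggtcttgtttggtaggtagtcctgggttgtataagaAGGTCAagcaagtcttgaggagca

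The *Slco1a4* stretch held no such hexamer. That of *Slco1a1* held 2, the nearer of which began 24 bases before the start (position -24). Over all RefSeq windows of 300 bases (250 before and 50 after a start), 27.7% held a hexamer, and 4 of the 10 windows of the transporters did. No window of the transporters held the hexamers as direct repeats with 3 or 4 bases between them or as everted repeats with 6 between them. Those arrangements were in 0.0122%, 0.0274% and 0.00913% of all windows, so their absence from 10 windows was nearly certain beforehand. Sequence outside the windows was not searched. These counts therefore do not show whether a transporter gene has PXR binding sites. *Slc22a7* had no window in the table used. A match is a match of letters, and binding was not measured.

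The number of probes well above background ran from 29510 to 33321 of 56605 over the arrays. The probe of *Nr1i2* did not separate the genotypes (log2 signal 11.47 ± 0.55 (SD, n = 6) in WT CONT and 11.44 ± 0.80 (SD, n = 6) in *Pxr*-/- CONT), so the labels were checked on *Cyp3a11*, the drug-metabolising P450 used as a marker of PXR activity. It rose by 3.55 log2 units with PCN in WT mice (limma adjusted p = 4.12e-10) and was 0.31 higher, not called, in *Pxr*-/- mice (adjusted p = 0.431). Without PCN it was 0.69 higher in *Pxr*-/- than in WT mice, not called (adjusted p = 0.199) and with overlap, so the genotype labels of the CONT livers were not checked by either gene. On the whole array the deviations of WT CONT replicate 2 and *Pxr*-/- CONT replicate 2 from their group means correlated (r = 0.611 across probes). The changes of *Slco1a4* that involve CONT livers, those of *Slc22a7* with PCN, and correlations within groups are given with and without both arrays.

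**Figure D1:**
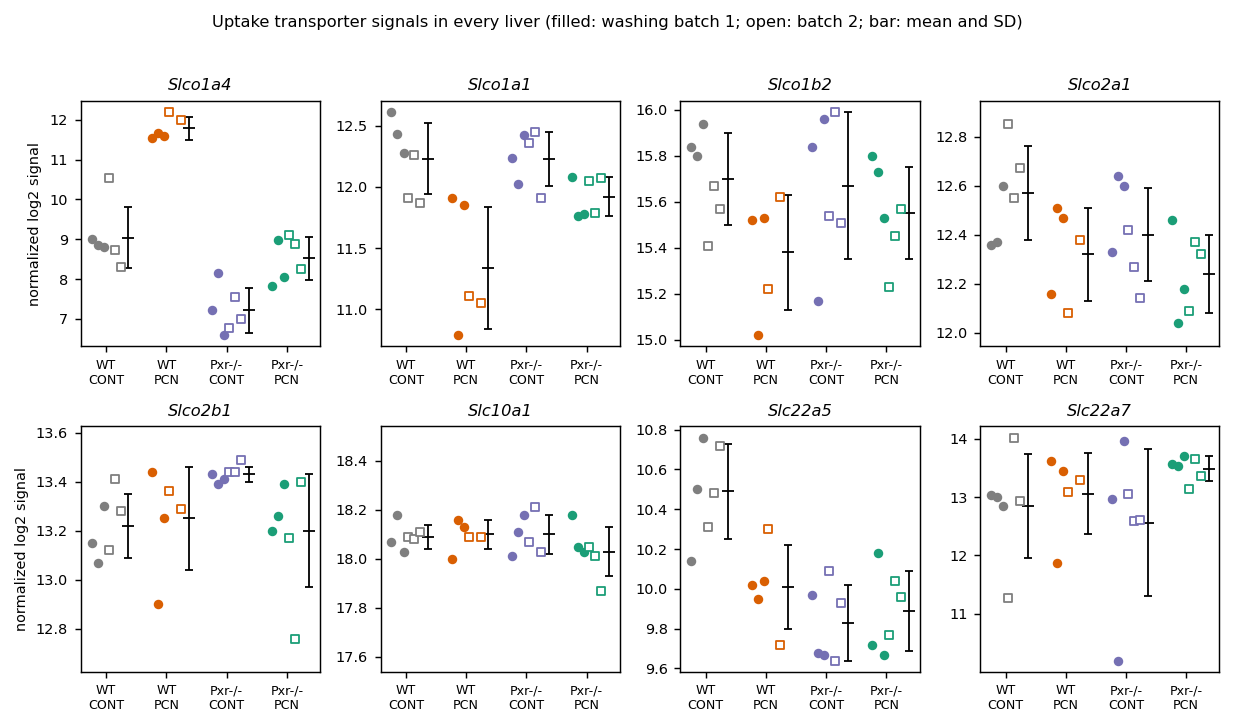
Normalized log2 signal of each of the 8 uptake transporters (1 panel each, own vertical scale) in the 4 groups on the horizontal axis. Each point is 1 mouse liver (filled circles, washing batch 1; open squares, washing batch 2), and the black bar is the group mean with its SD. For *Slco1a4*, the 5 WT PCN livers, from 11.53 to 12.19, lie above every other liver.

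In WT mice, PCN raised *Slco1a4* and lowered its neighbour *Slco1a1*, and none of the other 6 transporters was called. To be called, a gene needed a change of more than 1.5-fold and a Benjamini-Hochberg adjusted p no higher than 0.05 on its brightest kept probe. By that rule 1 of the 8 transporters was higher, where 3.79% of all genes tested were higher, and 1 was lower, where 2.39% were lower. The transporters and the gene lists were chosen with earlier results of these data known. Shares over all genes, here and in later paragraphs, are therefore a description and not an independent test. The median change of the 8 genes was -0.13 log2 units, against -0.02 over all genes tested. All these values come from whole liver, in which fewer cells of a type and less RNA per cell cannot be told apart.

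*Slco1a4* encodes Oatp1a4, a sinusoidal carrier of bile acids and of drugs such as digoxin. Its log2 signal in WT CONT livers had a lowest value of 8.29, a median of 8.83 and a highest of 10.54. In the 5 WT PCN livers it was 11.53, 11.58, 11.68, 11.99 and 12.19. The groups did not overlap, as was the case for 12.4% of all genes in this comparison, although the highest WT CONT liver, replicate 2, stood 1.53 above the next of the other 5. The fitted change was 2.78 (SE 0.32, 95% interval 2.11 to 3.45), or 6.87-fold (limma adjusted p = 4.09e-06), and 3.06 without both CONT arrays numbered 2. Leaving out any 1 array gave changes from 2.61 to 3.06, and the change was 2.71 within washing batch 1 and 2.91 within batch 2. The gene has 1 probe, at chr6:141754675-141754734 (mm9, minus strand), and the part that signal from related *Slco1a* transcripts has in its value was not tested.

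*Slco1a1* encodes Oatp1a1, a broad organic anion carrier that is more abundant in male than in female mouse liver. Its WT CONT livers had log2 signals from 11.87 to 12.61 with a median of 12.27. The WT PCN livers were at 10.79, 11.05, 11.11, 11.85 and 11.91. Thus 3 of the 5 treated livers lay well under every WT CONT liver, and the other 2 lay near its lowest values, so the groups overlapped. The change was -0.90 (SE 0.17, 95% interval -1.26 to -0.55), a fall of 1.87-fold (limma adjusted p = 0.000697), and it was called whichever array was left out (-1.03 to -0.75). It was -0.92 within washing batch 1 and -0.93 within batch 2. A second probe on the same transcript gave -0.77 (adjusted p = 0.0116, called), and the signals of both probes correlated over the 23 arrays (r = 0.94).

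*Slco1b2*, the third gene of the cluster, encodes Oatp1b2, the mouse counterpart of the human hepatic statin and bilirubin carriers. On its brightest probe (chr6:141634476-141634535, mm9) the WT CONT livers ranged from 15.41 to 15.94 and the WT PCN livers from 15.02 to 15.62, with overlap. The change of -0.34 (SE 0.14) was not called (limma adjusted p = 0.0868). A much dimmer probe (chr6:141605178-141605237), which the array design assigns to another transcript of the gene, ranged from 7.52 to 8.15 in WT CONT and from 6.73 to 7.42 in WT PCN livers. Those groups did not overlap, and its change of -0.85 (SE 0.16) was called (adjusted p = 0.000816). The call for *Slco1b2* therefore depended on the probe, and 2 of 8 transporters instead of 1 were lower when any probe of a gene could carry the call, where 2.83% of all genes were. A gene with more kept probes has more chances under that rule, and this share was not matched for the number of probes.

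*Slc22a5* encodes OCTN2, the sodium-dependent carnitine carrier. WT CONT livers ranged from 10.14 to 10.76 with a median of 10.49, and WT PCN livers were at 9.72, 9.95, 10.02, 10.04 and 10.30. All but 1 of the treated livers lay under the lowest WT CONT liver. The change of -0.47 (SE 0.12, 95% interval -0.73 to -0.22) passed the adjusted p (limma, 0.00849) and stayed under the fold threshold at 1.39-fold, so it was not called. It passed the adjusted p whichever array was left out (at most 0.0368), but not with the authors' values (-0.32, limma adjusted p = 0.0716). Nor did it pass within washing batches 1 and 2 (-0.47 and -0.49, adjusted p = 0.097 and 0.162). By the adjusted p alone, with no minimum fold, 3 of the 8 transporters passed, where 24.1% of all genes did. The array files place this probe on only 16 bases of the genome, from 53678030 to 53678045 of chromosome 11 (mm9). The other probe, on the same transcript, gave -0.27 (adjusted p = 0.0614), and both correlated over the arrays (r = 0.91).

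The remaining transporters had no called change on any kept probe in WT mice. *Slc10a1*, the sodium-dependent bile acid carrier, was at 18.09 ± 0.05 (SD, n = 6) in WT CONT and 18.10 ± 0.06 (SD, n = 5) in WT PCN livers, a change of 0.00 with a 95% interval from -0.12 to 0.12 (limma adjusted p = 0.995). This probe, which was not saturated on any array, ranked between 22 and 45 among 32087 probes on every array. Quantile normalization sets a signal by its rank on the array. Without that step the change was -0.08 with median scaling and -0.07 with the processed signal, and the authors' values gave 0.06, none of them called. A dimmer *Slc10a1* probe, assigned to another transcript, gave -0.10 (interval -0.40 to 0.19), and both probes were uncorrelated over the arrays (r = -0.05). *Slco2b1*, a carrier of sulphated steroids and drugs, changed by 0.03 (interval -0.18 to 0.24). Its second probe, which lies on the strand opposite to the gene's other probe, gave -0.40 (adjusted p = 0.0561). *Slco2a1*, the prostaglandin carrier, which is found in endothelial cells, changed by -0.25 (interval -0.48 to -0.02, adjusted p = 0.109). Its 2 other kept probes gave -0.12 and -0.07, and a further probe, above background on 2 WT CONT and 1 WT PCN arrays alone, was set aside.

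*Slc22a7* encodes OAT2, an organic anion carrier whose substrates include nucleotides and prostaglandins. Its SD was the highest of the 8 genes in WT CONT (0.89), WT PCN (0.70) and *Pxr*-/- CONT livers (1.26), but not in *Pxr*-/- PCN livers (0.21, against 0.54 for *Slco1a4*). WT CONT livers ranged from 11.27 to 14.02 with a median of 12.97, a span of 6.74-fold. WT PCN livers were at 11.87, 13.09, 13.30, 13.44 and 13.62. The change of 0.22 had a 95% interval from -0.80 to 1.23 (limma adjusted p = 0.798), so a change of 2-fold in the upward direction was within its reach, and the sign turned without WT CONT replicate 2 (-0.10), as it did without both CONT arrays numbered 2 (-0.10).

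**Figure D2:**
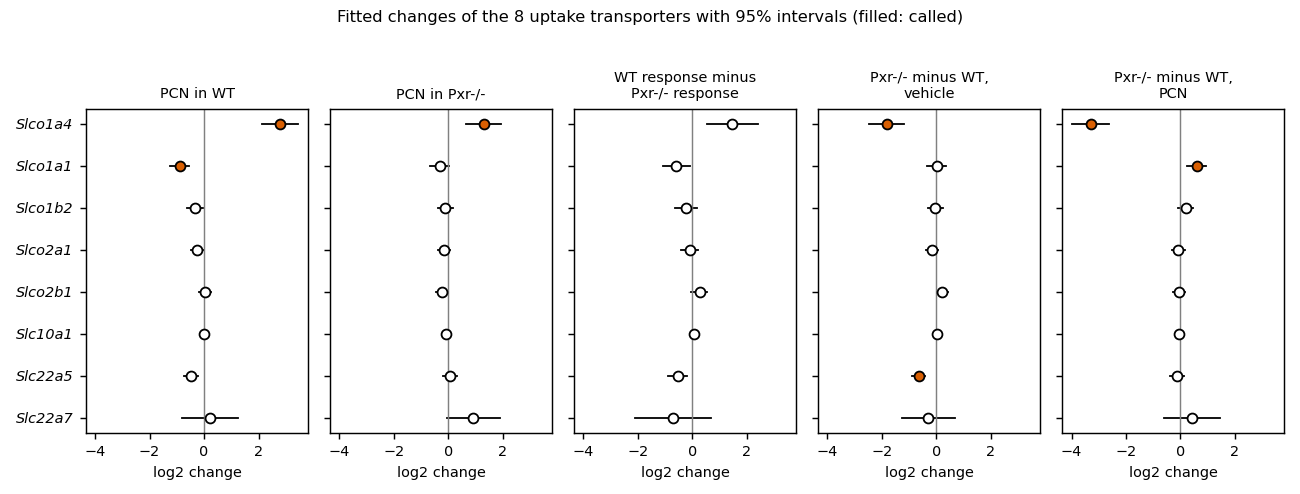
Fitted log2 changes (horizontal axis) of the 8 uptake transporters (rows) in 5 comparisons, with 95% intervals from limma. Filled points were called. *Slco1a4* was called in 4 of the 5 comparisons, and the interval of *Slc22a7* is the widest of the 8 in each comparison.

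In *Pxr*-/- mice, PCN raised *Slco1a4* too, and none of the other 7 transporters was called. That is 1 of 8 higher, where 1.42% of all genes tested were higher, and 0 of 8 lower, where 0.86% were lower. The median change of the 8 genes was -0.09, against -0.01 over all genes. *Pxr*-/- CONT livers had *Slco1a4* signals from 6.59 to 8.14 with a median of 7.11, and *Pxr*-/- PCN livers from 7.82 to 9.10 with a median of 8.57. The groups overlapped in this range, and the lowest *Pxr*-/- PCN liver lay under the highest *Pxr*-/- CONT liver, replicate 2. The change was 1.31 (SE 0.31, 95% interval 0.67 to 1.94), or 2.47-fold (limma adjusted p = 0.014). It was called whichever array was left out (1.18 to 1.53) and was 1.51 without both CONT arrays numbered 2. Within washing batches 1 and 2, of 3 arrays a group each, it was 0.97 (adjusted p = 0.263) and 1.64 (adjusted p = 0.139) and was not called.

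*Slco1a1* ranged from 11.91 to 12.45 in *Pxr*-/- CONT and from 11.76 to 12.08 in *Pxr*-/- PCN livers, a change of -0.31 that was not called (95% interval -0.65 to 0.03, limma adjusted p = 0.278). *Slc22a5* changed by 0.06 (interval -0.19 to 0.31) and *Slco1b2* by -0.11 (interval -0.39 to 0.16). The dim *Slco1b2* probe, called in WT mice, gave -0.52 here, with an adjusted p of 0.0462 and a fold of 1.44 that stayed under the threshold. *Slc10a1* (-0.07, interval -0.18 to 0.05), *Slco2a1* (-0.15, interval -0.37 to 0.07) and *Slco2b1* (-0.24, interval -0.44 to -0.03, adjusted p = 0.157) were not called either. For *Slco2a1*, the third probe gave -0.29 with an adjusted p of 0.0419, under the fold threshold. On the brightest probes, *Slco1a4* alone passed the adjusted p without a minimum fold, where 6.86% of all genes did. *Slc22a7* went from a range of 10.20 to 13.97 in *Pxr*-/- CONT to one of 13.14 to 13.71 in *Pxr*-/- PCN livers. Its change of 0.93 (SE 0.46, adjusted p = 0.251) became 0.43 without *Pxr*-/- CONT replicate 2, the lowest value of the leave-one-out fits, and 0.45 without both CONT arrays numbered 2.

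**Figure D3:**
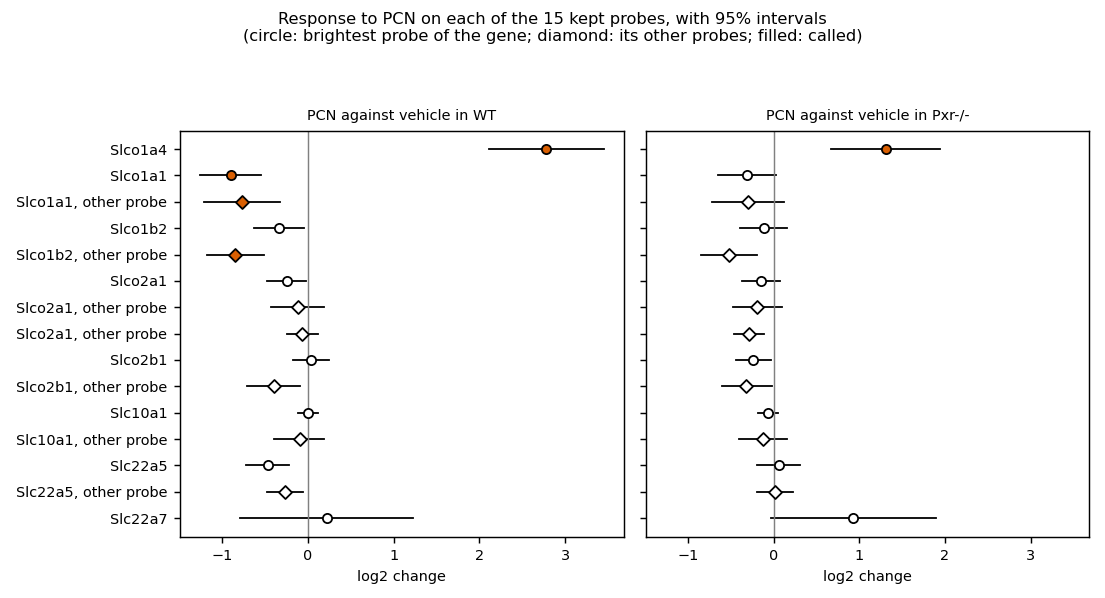
Log2 change with PCN (horizontal axis, 95% intervals from limma) on each of the 15 kept probes of the 8 uptake transporters, in WT mice at left and *Pxr*-/- mice at right. Circles are the brightest probe of a gene, diamonds its other probes, and filled points were called. Both *Slco1a1* probes were called in WT mice, and for *Slco1b2* the dimmer probe alone (-0.85).

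Whether the response to PCN depended on the genotype was tested by the interaction, the WT response minus that of *Pxr*-/- mice. It was called for 0 of the 8 transporters, where 1.05% of all genes tested were called, by limma, and 3 of the 8 had an unadjusted p under 0.05 (*Slco1a4*, *Slco1a1* and *Slc22a5*), where 15.1% of all genes did. For *Slco1a4* the WT response was larger by 1.47 (SE 0.45, 95% interval 0.55 to 2.40), or 2.78-fold, with a limma adjusted p of 0.107. Without WT CONT replicate 2, its high vehicle liver, the difference was 1.75 and was called (adjusted p = 0.0128). Without both CONT arrays numbered 2, a choice made after seeing the data, it was 1.54 and was called (adjusted p = 0.0125). Both of those arrays had the highest *Slco1a4* signal of their groups. Among the 23 fits that left out 1 array, the difference was called in 1, that without WT CONT replicate 2. With all arrays and the replicate number as a block, it was 1.37 and was called (limma adjusted p = 0.0482). Those numbers were not shown to pair mice, and the other normalizations, filters and blocks did not call it. For *Slco1a1* the difference was -0.59 (interval -1.08 to -0.10, adjusted p = 0.24) and for *Slc22a5* -0.53 (interval -0.89 to -0.18, adjusted p = 0.132). A fall that was called in WT mice and not in *Pxr*-/- mice, as for *Slco1a1*, was thus not shown to differ between them. The other 5 transporters had differences from -0.71 (*Slc22a7*) to 0.27 (*Slco2b1*).

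Without PCN, *Slco1a4* and *Slc22a5* were lower in *Pxr*-/- than in WT mice and the other 6 transporters were not called. That is 2 of 8 lower, where 0.0807% of all genes tested were lower, and 0 higher, where 0.228% were. This comparison shares its CONT arrays with the responses to PCN given above. *Slco1a4* was lower by 1.83 log2 units (a change of -1.83, SE 0.31, 95% interval -2.46 to -1.19), or 3.55-fold (limma adjusted p = 0.0046), with a change of -1.75 (adjusted p = 0.00044) without both CONT arrays numbered 2. The highest *Pxr*-/- CONT liver, at 8.14, lay just under the lowest WT CONT liver, at 8.29. *Slc22a5* was lower by 1.57-fold (-0.65, SE 0.12, adjusted p = 0.00924). The *Pxr*-/- CONT livers ran from 9.64 to 10.09 and lay under the WT CONT livers, whose lowest was at 10.14, so the groups of both genes did not overlap (0.836% of all genes). Both genes were called whichever array was left out. When only the CONT groups were fitted, neither passed (adjusted p = 0.0643 for *Slco1a4* and 0.0529 for *Slc22a5*, with the same changes), nor within a washing batch, where *Slco1a4* was at -1.57 and -2.08 and *Slc22a5* at -0.70 and -0.61. The dimmer *Slc22a5* probe gave -0.38 (adjusted p = 0.105). *Slco1a1* was at 0.01 (interval -0.33 to 0.34), *Slco1b2* at -0.04 and *Slc10a1* at 0.01 (interval -0.11 to 0.12).

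Under PCN, *Slco1a4* was 9.86-fold lower in *Pxr*-/- than in WT mice, and *Slco1a1* was 1.51-fold higher. That is 1 of 8 transporters lower, where 1.36% of all genes tested were lower, and 1 higher, where 0.731% were. For *Slco1a4* the *Pxr*-/- PCN livers reached at most 9.10 and the WT PCN livers started at 11.53, a change of -3.30 (SE 0.32, limma adjusted p = 6.65e-07) that was also -3.30 within washing batch 1 and -3.35 within batch 2. For *Slco1a1* the difference of 0.60 (SE 0.17, 95% interval 0.24 to 0.95, adjusted p = 0.034) lay just over the fold threshold, and the groups overlapped. It was no longer called in 6 of the 23 fits that left out an array, with 0.44 (adjusted p = 0.111) without WT PCN replicate 4, the lowest of its group. The authors' normalized values gave 0.33 (adjusted p = 0.142), in a comparison where those values had a median of -0.18 over all probes. The second *Slco1a1* probe gave 0.62 and was not called (limma adjusted p = 0.0771), so this call depended on the probe. *Slc22a5*, lower without PCN, was at -0.12 (adjusted p = 0.602) under PCN.

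The order of the 4 groups was thus clear at 1 step alone. For *Slco1a4* it ran from *Pxr*-/- CONT through *Pxr*-/- PCN and WT CONT to WT PCN, and only the last step was free of overlap between neighbours. For *Slco1a1* it ran from WT PCN through *Pxr*-/- PCN to both CONT groups, with overlap at each step. For *Slc22a5* it ran from *Pxr*-/- CONT through *Pxr*-/- PCN and WT PCN to WT CONT, again with overlap at each step. The other 5 genes had overlap between all neighbours too. On individual arrays, deviations from the group means went opposite ways for *Slco1a4* and *Slc22a7* (r = -0.70) and together for *Slco1b2* and *Slc22a7* (r = 0.72). Without both CONT arrays numbered 2, over 21 arrays, these values were -0.26 and 0.47, so they rested largely on those arrays. These are descriptions over arrays that share slides. The CONT arrays numbered 2 had the highest *Slco1a4* and the lowest *Slc22a7* signal of their groups.

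The genes whose signals most resembled those of a transporter over the 23 arrays, after removal of the washing batch, are named as a description, without a test. For *Slco1a4* they were *Nop56* and *Nol8*, which act in ribosome assembly (r = 0.92 each), and *Rbbp8*, a DNA repair gene (r = 0.91). Within groups the likeness was weaker (r of the deviations 0.58, 0.61 and 0.38, and 0.29, 0.53 and -0.16 without both CONT arrays numbered 2). For *Slco1a1* they were *Ephx2*, a soluble epoxide hydrolase, and *Hao1*, a peroxisomal oxidase (r = 0.87 each), and *Sirt3*, a mitochondrial deacylase (r = 0.86). For *Slc22a5* they were *Rab30*, *Qpct* and *Vhl* (r = 0.75 to 0.77), and the values within groups were 0.70, 0.25 and 0.15. Without both CONT arrays numbered 2 those within groups were 0.68, 0.28 and 0.15. For *Slc22a7* they were the carboxylesterase *Ces3b* (r = 0.89), *Hebp1* and *Tpmt* (r = 0.83 each), and the values within groups were 0.90, 0.82 and 0.82. Without both CONT arrays numbered 2 the values over arrays were 0.76, 0.52 and 0.69, and those within groups 0.78, 0.43 and 0.71. For *Slco2a1* they were *Lmo2* (r = 0.88), *Phc2* and *Scarb1*. *Slco1b2* (*Plcg1*, r = 0.84), *Slco2b1* (*Crtc1*, r = 0.83) and *Slc10a1* (*Top2b*, r = 0.77) had no closer gene.

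**Figure D4:**
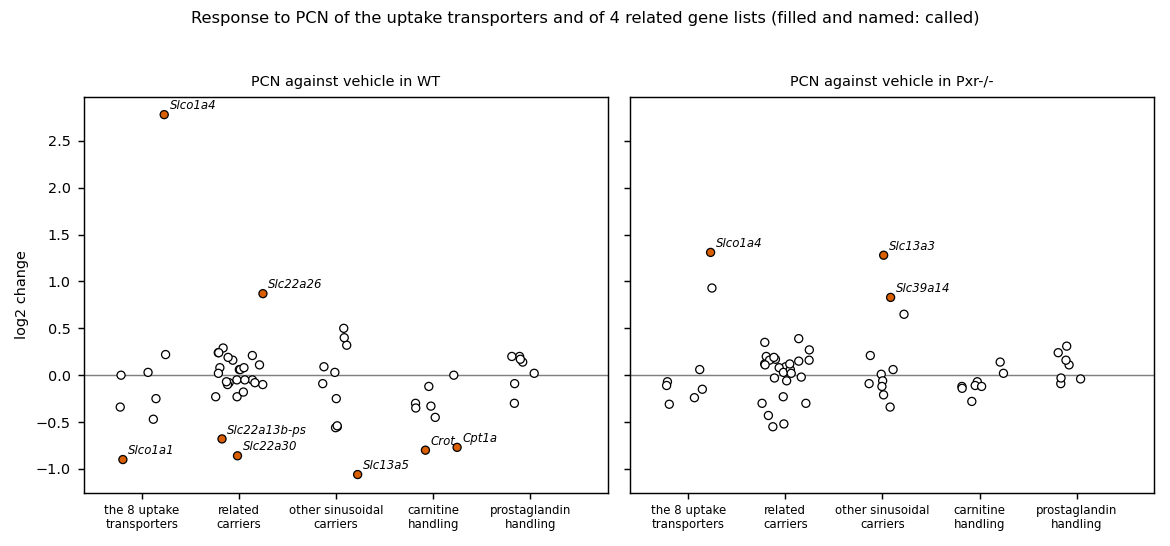
Log2 change with PCN (vertical axis) of each gene of the 8 uptake transporters and of 4 lists of related genes (horizontal axis), in WT mice at left and *Pxr*-/- mice at right. Each point is 1 gene, and filled, named points were called. *Slco1a4* has the highest value of both panels (2.78 and 1.31), and among the related carriers the changes in WT mice end at -0.86 and 0.87.

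Other carriers of the same families gave a comparison. Of 40 further *Slco*, *Slc10a* and *Slc22a* genes on the array, 26 were tested. In WT mice PCN called 1 of them higher, *Slc22a26* (0.87, limma adjusted p = 0.0318), and 2 lower, *Slc22a30* (-0.86, adjusted p = 0.000186) and *Slc22a13b-ps*, which is named as a pseudogene (-0.68, adjusted p = 0.00291). Over all genes tested, 3.79% were called higher and 2.39% lower. *Slc22a26* had a low signal (mean 5.69 in WT CONT and 6.53 in WT PCN livers), and its groups overlapped. In *Pxr*-/- mice none of the 26 was called, while 2 passed the adjusted p alone, where 6.86% of all genes did. None of the 26 was called in the interaction or in either comparison of genotypes. *Slco1a6*, beyond *Slco1a1* in the chromosome 6 cluster, was at 0.02 in WT and 0.35 in *Pxr*-/- mice, neither called. The median of the 26 was -0.02 in WT mice.

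Among 11 other sinusoidal carriers, the citrate carrier *Slc13a5* fell with PCN in WT mice (-1.06, limma adjusted p = 0.0457) and was the only one called. By the adjusted p alone 4 of the 11 passed, among them the lactate carrier *Slc16a1* at 0.50 (adjusted p = 0.0232) and the fatty acid carrier *Slc27a2* at -0.56 (adjusted p = 0.000297). Of all genes tested, 24.1% did so, and 2.39% were called lower. In *Pxr*-/- mice PCN raised the dicarboxylate carrier *Slc13a3* (1.28, adjusted p = 0.00264) and the zinc and iron carrier *Slc39a14* (0.83, adjusted p = 0.00493). The response of *Slc13a3* differed between genotypes (interaction -1.83, adjusted p = 0.00321), from -0.55 in WT mice, not called, to its rise in *Pxr*-/- mice. Under PCN, *Slc13a3* was higher (1.25) and *Slc16a1* lower (-0.93, adjusted p = 0.000857) in *Pxr*-/- than in WT mice. The other carriers of this list, among them the glucose carrier *Slc2a2*, were called in no comparison.

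OCTN2 supplies the carnitine on which mitochondrial fatty acid entry depends, and 8 genes of carnitine handling were therefore set beside *Slc22a5*. In WT mice PCN lowered *Cpt1a*, which links fatty acids to carnitine at the mitochondrial surface (-0.77, limma adjusted p = 4.11e-05), and *Crot*, its peroxisomal relative (-0.80, adjusted p = 0.00241). The list had 2 called lower and 0 called higher, where 2.39% and 3.79% of all genes were. By the adjusted p alone 5 of 8 passed, where 24.1% of all genes did, and the median of the list was -0.34. In *Pxr*-/- mice none was called, with *Cpt1a* at 0.02 and *Crot* at -0.28. The *Cpt1a* response differed between genotypes (-0.79, adjusted p = 0.0052), while that of *Crot* was not shown to (-0.52, adjusted p = 0.334). Under PCN *Cpt1a* was higher in *Pxr*-/- than in WT mice (0.64, adjusted p = 0.000983). Beside *Slco2a1*, 7 of 8 genes of prostaglandin synthesis and breakdown were tested and none was called in any of the 5 comparisons, with changes from -0.35 to 0.31.

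Marker genes of liver cell types were read beside these values. All 10 hepatocyte markers were tested, and the log2 of their summed signal ran from 20.35 to 20.63 in WT CONT, 20.29 to 20.40 in WT PCN, 20.39 to 20.50 in *Pxr*-/- CONT and 20.38 to 20.51 in *Pxr*-/- PCN livers. The called ones were *Apoa1* (0.62, PCN in *Pxr*-/- mice) and *Tat* (0.73, *Pxr*-/- against WT under PCN). Of 8 stellate cell markers, *Col1a1* and *Col3a1* rose with PCN in WT (3.17 and 2.18) and *Pxr*-/- mice (1.96 and 1.22), while the other 6 were not called. The median of the 8 was 0.09 in WT and 0.11 in *Pxr*-/- mice, and the lowest value in WT mice was that of *Lrat* (-0.47). The summed list ran from 14.40 to 15.16 in WT CONT, 14.81 to 15.28 in WT PCN, 14.17 to 14.90 in *Pxr*-/- CONT and 14.23 to 15.23 in *Pxr*-/- PCN livers. Of 6 cholangiocyte markers tested, *Sox9* rose in WT mice (0.76) and was lower in *Pxr*-/- than in WT mice under PCN (-0.76), while no other was called. With PCN the median of the 6 was 0.57 in WT mice, from -0.14 (*Sctr*) to 0.82 (*Spp1*). In *Pxr*-/- mice it was 0.61, from -0.05 (*Sctr*) to 1.09 (*Krt19*). The summed list ran from 10.53 to 12.24 in WT CONT, 11.70 to 12.97 in WT PCN, 10.82 to 11.72 in *Pxr*-/- CONT and 11.16 to 12.52 in *Pxr*-/- PCN livers. None of the 10 endothelial, 8 Kupffer cell, 4 lymphocyte and 3 blood markers tested was called in any comparison. With PCN in *Pxr*-/- mice, all 10 endothelial (median 0.18) and all 8 Kupffer cell markers (median 0.33) were nonetheless positive, while *Slco2a1* was at -0.15. In WT mice 4 of 10 (median -0.10) and 6 of 8 (median 0.11) were positive. The 3 blood markers were negative in WT (median -0.35) and *Pxr*-/- mice (median -0.38). Among the listed markers that were not tested were *Cftr*, *Cd79a*, *Cd8a* and *Hbb-bs*. The part of these markers' cells in the transporter results was not tested.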

How the data were processed

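The intensity values, 1 per spot, are Agilent Feature Extraction (10.10.1.1) output per the file headers, on a linear scale and not normalized between arrays. The authors also deposited log2 values, which they made from the median signal by filtering, log2 transformation, correction for washing batch and CrossNorm normalization, used here as an alternative.

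Spots with an outlier flag were set to missing, log2 median signals were averaged per probe, and probes were kept that cleared background in over 50% of any 1 group's arrays (32087 of 56605). Values were quantile normalized. All 23 arrays entered 1 limma 3.58.1 fit (R 4.3.3) with terms for group and washing batch (18 residual degrees of freedom), tested on simulated data. P-values were adjusted over all probes, and each gene was read from its brightest kept probe. Because of the batch term, changes differ slightly from differences of means. Arrays give no counts, so their number limits precision. The labels name single mice, and the numbers in them were not shown to pair mice. Tables and figures used Python 3.11.15. Coordinates are mm9 for probes and GRCm38.p6 for RefSeq sequences. Exon positions of probes were not analysed here. Named genes were the transporters, 2 label checks, called genes of the lists, and the 3 most similar genes. The transporters and lists were chosen with earlier results of these data known. Alternatives were other normalizations, filters, blocks, subsets and probes.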

Additional observations from a re-analysis of the deposited data

Results flagged for a closer look

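Among the 32 sets of a transporter in a group, 3 held an array whose gap to its nearest neighbour was large against the range of its group, where chance gives about 1 in 20 sets. *Slco1a4* in WT CONT replicate 2 was at 10.54, with a gap of 1.53 in a range of 2.25. *Slc22a7* in *Pxr*-/- CONT replicate 2 was at 10.20, with a gap of 2.39 in a range of 3.77. *Slco2b1* in *Pxr*-/- PCN replicate 4 was at 12.76, with a gap of 0.41 in a range of 0.64.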

How the results depend on the processing

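Direction and call were the same as reported in 505 of 552 values of the transporters under other processing, models and subsets, and in 925 of 960 with 1 array, or both vehicle arrays numbered 2, left out. *Slco1a4* and *Slco1a1* were called for PCN in WT mice under every normalization, filter, block and subset tried. Within washing batches 1 and 2, 0 transporters were called for PCN in *Pxr*-/- mice, and 0 for the genotypes without PCN, as with only the groups compared. For the genotypes under PCN the count was 1, *Slco1a4*, with the authors' values, median scaling, no filter on dim probes, no batch term, slide as a fixed block, only the groups compared and within each batch, and 1 to 2 with an array left out (1 without WT PCN replicates 2, 3 or 4 or *Pxr*-/- PCN replicates 1, 2 or 6). For the interaction it was 1, *Slco1a4*, without both vehicle arrays numbered 2 (chosen after seeing the data) and 0 to 1 with an array left out (1 without WT CONT replicate 2). Same-numbered arrays did not all deviate together (correlations from -0.17 to 0.611), so the replicate numbers were not taken to pair them. Vehicle arrays of both genotypes numbered 1 to 4 correlated at 0.27 to 0.611, and those numbered 5 and 6 at 0.00516 and -0.0396. With the replicate as a block the interaction of *Slco1a4* was 1.37 (adjusted p = 0.0482), which made the count 1. The subsets hold fewer arrays, and the cause was not tested otherwise.

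Signs turned 31 times with all arrays, a subset or both vehicle arrays numbered 2 left out, and 25 times with 1 array left out, in values that were not called. For *Slc10a1* with PCN in WT mice the values were -0.07 (processed signal), -0.02 (normexp), -0.08 (median scaling), -0.03 (slide as a fixed block), -0.01 (replicate block) and 0.00 (batch 2). In its other comparisons they were 0.01 and -0.06 (authors' values, PCN in *Pxr*-/- mice and genotypes without PCN), -0.01 and 0.13 (processed signal, interaction and genotypes under PCN), and -0.04 and 0.10 (median scaling, the same). For the genotypes without PCN, *Slco1a1* was at -0.13 (authors' values), 0.00 (median scaling), -0.02 (slide as a fixed block) and -0.21 (batch 1), *Slco1b2* at 0.04 (processed signal), 0.02 (median scaling), 0.13 (batch 2) and 0.04 (without both vehicle arrays numbered 2), *Slco2a1* at 0.08 (batch 1) and *Slc22a7* at 0.01 (batch 2). Under PCN the genotypes gave -0.09 (authors' values) and 0.00 (batch 2) for *Slco1b2*, 0.03 (batch 2) for *Slco2a1* and 0.09 (batch 1) for *Slco2b1*. *Slco1b2* was at 0.03 for PCN in *Pxr*-/- mice (batch 1) and 0.13 for the interaction (batch 2), which for *Slco2a1* was 0.03 (authors' values) and 0.23 (batch 1). *Slc22a7* was at -0.10 for PCN in WT mice without both vehicle arrays numbered 2. With 1 array left out, *Slc22a7* ran from -0.10 to 0.51 for PCN in WT mice and from -0.62 to 0.21 for the genotypes without PCN. In the latter *Slco1a1* ran from -0.06 to 0.07, *Slco1b2* from -0.12 to 0.08 and *Slc10a1* from -0.02 to 0.03. *Slco2b1* ran from -0.02 to 0.12 for PCN in WT mice and from -0.14 to 0.04 for the genotypes under PCN, *Slc10a1* from -0.02 to 0.03 for PCN in WT mice and *Slc22a5* from -0.01 to 0.11 for PCN in *Pxr*-/- mice. The authors' values had a median over all probes of 0.11 for PCN in WT mice and -0.18 for the genotypes under PCN.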
